A study of Homo sapiens with 2 samples.

Results

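Desmosomes are the spot junctions that tie epithelial cells to each other and to their keratin filaments, and 10 genes of this junction were followed: the desmogleins DSG2 and DSG3, the desmocollins DSC2 and DSC3, plakoglobin (JUP), the plakophilins PKP1, PKP2 and PKP3, and the plakins DSP and PPL. They were picked by name, as the probe sets that the platform annotation assigns to 1 of these genes alone. This gave 20 probe sets of 54613 that are not controls, and 10 genes of 19775 with a probe set of their own. All 10 genes had at least 1 probe set above the floor, the median intensity of each array, and of their 20 probe sets 19 were above it on both arrays.

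The cells were Ca9-22, a squamous carcinoma line from human gingiva, stably transduced with an empty vector or with a RUNX2 vector and then selected with blasticidin. RUNX2 is a runt-domain transcription factor best known from bone, and the study asked what its forced expression does to transcripts of this oral cancer line. Each group held 1 array of biotin-labelled cRNA from total RNA, so the study had 2 arrays and no replicates, and no test was made. That number of arrays is what bounds the precision of the values. Whether each population was a pool or a clone is not given in the sources used here.

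In a desmosome the outer parts of desmogleins and desmocollins, which are cadherins, bind each other across the gap between cells. Their tails hold plakoglobin and the plakophilins, proteins with armadillo repeats, and these hold desmoplakin (DSP), whose far end grips the keratins. In epidermis DSG3 and DSC3 are known from the lower cell layers and DSG1 and DSC1 from the upper ones, while in the lining of the mouth DSG3 is found through the layers. DSG3 is the antigen of pemphigus vulgaris. Periplakin (PPL) is a plakin of the cornified envelope that is also found at desmosomes.

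Levels below are intensities in arbitrary units after the array labelled RUNX2 was scaled to the empty vector array, and ratios are the array labelled RUNX2 over the empty vector array on the log2 scale. As markers of the label, 4 of 4 squamous genes with a probe set of their own (KRT5, KRT14, CDH1 and SFN) were above the floor, and 0 of 4 leukocyte genes were. Of the other markers with a probe set, 2 of 3 endothelial genes (PECAM1 and VWF), 2 of 3 melanocyte genes (PMEL and TYR) and 1 of 2 heart muscle genes (ACTN2) were above it, the brightest at 75.02 for VWF. Summed over all their probe sets, squamous markers came to 34884 on the array labelled empty vector and 48075 on that labelled RUNX2. Leukocyte markers summed to 136 and 112, endothelial markers to 282 and 221, melanocyte markers to 179 and 161, and heart muscle markers to 140 and 133. Fibroblast markers summed to 2738 and 2258, where COL1A1 was the 1 of 6 genes above the floor. The part of these differences in the values below was not tested. Of 3 RUNX2 probe sets above the floor, 2 were higher (log2 ratios of 2.06 and 1.79) and 1 was lower (-2.01) in the array labelled RUNX2. The RUNX2 signal therefore does not settle which array is which, and every direction given here rests on the labels.

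The 4 cadherin members lie in 1 cluster on human chromosome 18, and the stretches before the starts of those with the widest ratios are shown here because DSC2 read higher and DSG2 lower from the same cluster. The sequences are RefSeq's on GRCh38.p14, each the 250 bases before an annotated start, in capitals where the GC box GGGCGG matches on either strand. DSC2 has 2 annotated starts, with these stretches at chr18:31102422-31102671 and chr18:31101261-31101510 on the minus strand, and the DSG2 stretch is chr18:31497927-31498176 on the plus strand.
DSC2 upstream start: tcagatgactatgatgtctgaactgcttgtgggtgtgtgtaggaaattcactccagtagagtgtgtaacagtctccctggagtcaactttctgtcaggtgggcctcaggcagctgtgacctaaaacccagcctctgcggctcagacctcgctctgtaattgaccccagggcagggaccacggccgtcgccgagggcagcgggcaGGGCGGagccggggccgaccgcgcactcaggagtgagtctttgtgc
DSC2 downstream start: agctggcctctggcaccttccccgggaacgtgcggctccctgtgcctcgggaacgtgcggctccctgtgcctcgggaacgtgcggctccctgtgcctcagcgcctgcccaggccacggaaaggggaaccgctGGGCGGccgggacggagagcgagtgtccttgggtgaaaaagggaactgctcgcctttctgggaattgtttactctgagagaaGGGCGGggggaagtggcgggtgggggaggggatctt
DSG2: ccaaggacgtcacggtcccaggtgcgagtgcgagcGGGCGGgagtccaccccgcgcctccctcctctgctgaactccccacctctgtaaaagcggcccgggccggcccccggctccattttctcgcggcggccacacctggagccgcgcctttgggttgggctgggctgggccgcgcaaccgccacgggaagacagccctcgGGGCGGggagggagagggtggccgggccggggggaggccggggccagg

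The RUNX motif was searched as TGTGGT and as TGCGGT, on both strands, in windows of 300 bases, 250 before and 50 after each start. These motifs differ by 1 letter, so they cannot match at the same place on the same strand. Of the 10 genes, 7 matched the table, with 9 windows; PKP2, PKP3 and PPL did not. TGTGGT was in 0 of the 9 windows and in 13.1% of all 35116 promoter windows. TGCGGT was in 1 of the 9, that of DSG3, and in 7.29% of all. The match is shown in capitals, on the opposite strand, in the 30 bases chr18:31447724-31447753 on the plus strand, and it runs from base -5 to base 1 of the start.
DSG3: gggtggggagggACCGCAtaacagaccatc

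Of other motifs, GGGCGG was in 6 of the 9 windows (DSC2 at both starts, DSG2, DSP, PKP1 and 1 start of JUP) and in 45% of all windows. It was in the windows of DSC2, which read higher, and of DSG2, which read lower. The AP-1 motif TGANTCA (7.71% of all windows) and the grainyhead motif AACCGGTT (0.134%) were in 0 of the 9. G and C made up 44% of the DSG3 window, against 60.7% to 77% in the other 8 and a median of 58.7% over all windows. A match is a description of letters, and its absence says nothing about binding.

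The desmosome genes did not go one way. At the level of genes, where the brightest measured probe set stands for its gene, 5 of 10 lay above 0 and 5 below 0, from -0.69 for PPL to 0.40 for DSC2, with a median of 0.02. Over all 12729 genes tested the median was -0.06, and 57.3% of them lay below 0. The split of the members depends on the processing. With equal medians, and with the mean over probe sets, 6 lay above 0 and 4 below. DSG3 and PKP1, counted here as below 0, have no settled direction. None of the 19 measured probe sets was 2-fold higher or 2-fold lower, where 1.64% of all 23332 tested probe sets passed 2-fold upwards and 1.12% downwards, so 0 of 19 does not set these genes apart. At 1.5-fold, 3 of 19 probe sets were higher, all of them for DSC2 (background 7.08%), and 1 was lower, for PPL (background 6.09%). By genes, 0 of 10 passed 1.5-fold upwards (background 5.77%) and 1 of 10, PPL, downwards (background 6.88%). In a bulk culture, fewer cells that carry a transcript and less of it per cell cannot be told apart.

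The yardstick available for error is the spread of log2 ratios among probe sets of 1 gene, an SD of 0.29 over 6165 genes with at least 2 measured probe sets. Among the 6 members with at least 2, that SD was 0.22. Under the reported scaling, 5 of the 6 had all their probe sets on the same side of 0. With equal medians DSC3 no longer did, as 206033_s_at came to 0.09 and 244107_at to 0.04, beside -0.23 for 206032_at. On the deposited scale it did not either, with 206033_s_at at 0.04 beside -0.28 for 206032_at. There 205595_at of DSG3 lay at 0, so DSG3 did not agree on a side. The agreement thus depends on the scaling. The share of all genes with such agreement was not counted, so the 5 of 6 does not set the members apart. The SD is a technical spread within the arrays. It says nothing about how separate cultures would differ.

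**Figure D1:**
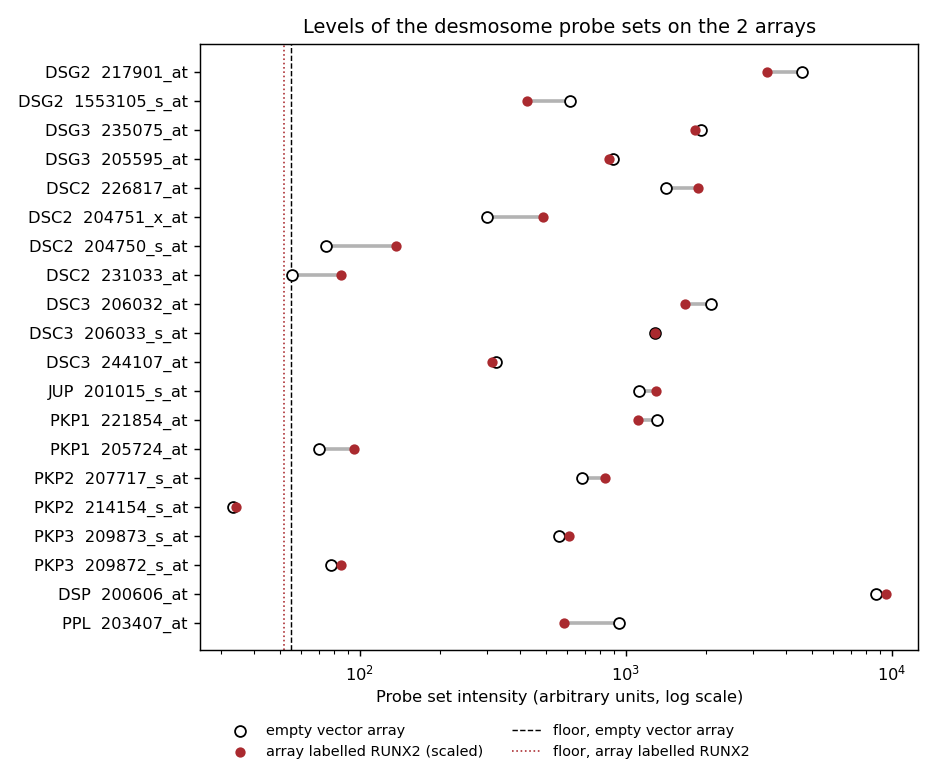
Intensity of each desmosome probe set (rows) in arbitrary units on a log axis; open circles are the empty vector array, red points the scaled array labelled RUNX2, and the lines are the floors of 55.3 and 51.8. The 4 DSC2 rows run to the right, the rows of DSG2 and PPL to the left, and 1 PKP2 row lies below both floors.

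Among the desmogleins, DSG2, the one found in every desmosome-bearing tissue, read lower. Its probe set 217901_at stood at 4577 on the array labelled empty vector and 3387 on that labelled RUNX2, 1.35-fold lower. The other, 1553105_s_at, stood at 617 and 425, 1.45-fold lower. Their log2 ratios of -0.43 and -0.54 differed by 0.10, less than the SD between probe sets, and each was wider than that SD. Of all tested probe sets, 23.4% had a ratio at least as wide as the first of these and 15.8% one at least as wide as the other, in either direction.

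DSG3, the main desmoglein of the oral lining, had ratios close to 0. Probe set 235075_at read 1919 and 1819, and 205595_at read 898 and 867, for log2 ratios of -0.08 and -0.05. In the deposited values before scaling, 205595_at was 898 on both arrays, equal in every digit, so its ratio is the scaling factor itself. Both ratios were smaller than the shift that scaling to equal medians gives every gene. With equal medians 235075_at came to 0.01 and 205595_at to 0.04, so no direction is given for DSG3. DSG2 lay 0.36 below DSG3 on the log2 scale, a difference that no common scaling factor alters, and 0.86 times the SD of 0.41 expected of a difference between genes from the probe set spread.

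DSC2, the desmocollin known from all desmosomes, had the highest ratios. Probe set 226817_at read 1413 on the array labelled empty vector and 1868 on that labelled RUNX2, which is 1.32-fold higher. For 204751_x_at the values were 301 and 490, or 1.62-fold higher. The dimmer 204750_s_at read 74.3 and 137, 1.84-fold higher. The dimmest, 231033_at, read 55.6 and 84.6, 1.52-fold higher, with the first value just above the floor of 55.3. All 4 were thus higher in the array labelled RUNX2, and their log2 ratios of 0.40 to 0.88 spanned 0.48. The brightest of the 4 gave the smallest ratio. With an offset added in place of the floor, the ratios of the 2 dimmest came to 0.54 and 0.30.

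DSC3, the desmocollin of lower epidermal layers and DSC2's neighbour, did not share this. Probe set 206032_at read 2096 and 1673, 1.25-fold lower, while 206033_s_at read 1288 and 1283 and 244107_at read 326 and 314. Their log2 ratios were -0.33, -0.01 and -0.05, so 1 probe set of 3 carries the lower value. The brightest probe sets of DSC2 and DSC3 differed by 0.73 on the log2 scale, 1.75 times the SD of 0.41, and the lowest DSC2 ratio lay 0.41 above the highest DSC3 ratio. DSC2 and DSG2 differed by 0.84, which was 2.02 times that SD.

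**Figure D2:**
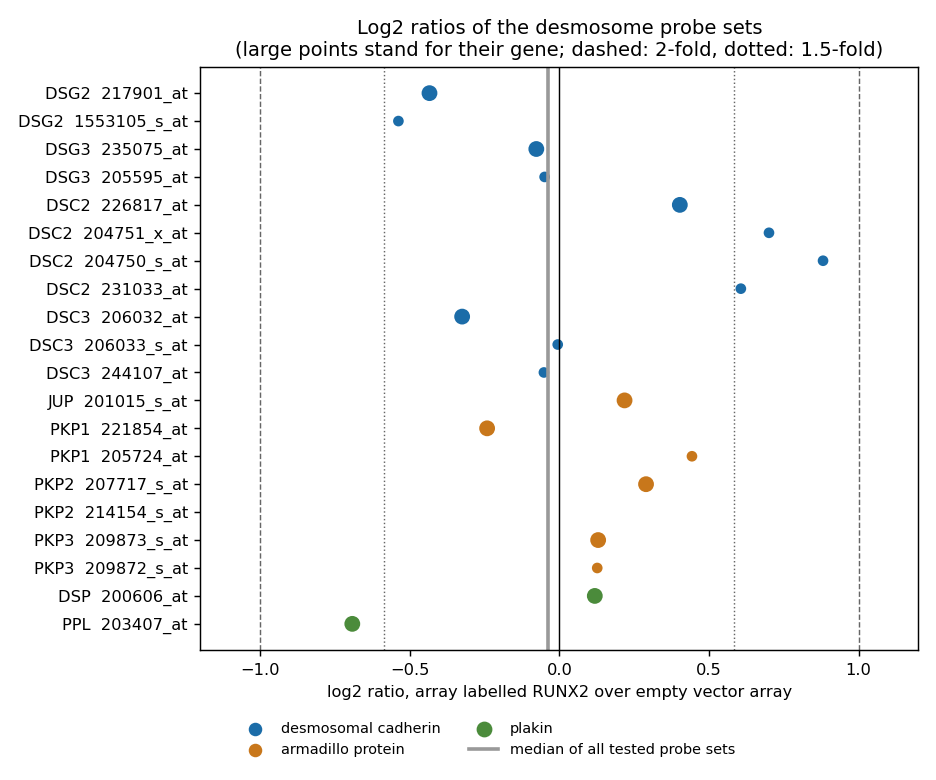
Log2 ratio of each measured desmosome probe set (rows), array labelled RUNX2 over empty vector array, coloured by protein class; large points stand for their gene, and the grey line is the median of all tested probe sets. DSC2 ratios run from 0.40 to 0.88, DSG2 ratios are -0.43 and -0.54, PPL is lowest at -0.69, and every point lies inside the dashed 2-fold lines.

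Along the chromosome the cadherin genes stand in the order DSC3, DSC2, DSC1, DSG1, DSG4, DSG3 and DSG2, between CDH2 on the DSC3 side and TTR and B4GALT6 on the DSG2 side. Taken in that order, the gene ratios were -0.33 for DSC3 and 0.40 for DSC2, then -0.08 for DSG3 and -0.43 for DSG2. Between them, DSC1, DSG1 and DSG4, cadherins of upper epidermal layers and of hair, lay below the floor on both arrays and have no ratio. Their values reached at most 10.8 on the empty vector array. On the flanks, CDH2, N-cadherin, had a ratio of 0.79, from 134 to 231. TTR, transthyretin, had -0.35, and B4GALT6, a galactosyltransferase, had -0.46. Neighbours thus had ratios on both sides of 0.

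Of the armadillo members, JUP, PKP2 and PKP3 had ratios under the SD of 0.29 between probe sets, and the probe sets of PKP1 disagreed. PKP2 was only just under it, and this depends on the scaling. On the deposited scale PKP2 came to 0.34, and with equal medians PKP2 came to 0.38 and JUP to 0.31. Plakoglobin, JUP, which also serves in adherens junctions, had 1 probe set, at 1116 and 1298, 1.16-fold higher. Plakophilin 2, the one of the 3 with the widest tissue range, read 684 and 836 in 207717_s_at, 1.22-fold higher, and its other probe set, 214154_s_at, read 33.4 and 34.3, below the floor on both arrays. Plakophilin 3 read 558 and 611 in 209873_s_at and 78.0 and 85.1 in 209872_s_at, 1.09-fold higher in each.

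Plakophilin 1, the plakophilin of stratified epithelium, had probe sets that went apart. The brighter, 221854_at, read 1314 and 1111, 1.18-fold lower. The dimmer, 205724_at, read 70.0 and 95.1, 1.36-fold higher, near the floor. Their log2 ratios of -0.24 and 0.44 differ by 0.68, and their mean of 0.10 has the opposite sign to the brighter one, so PKP1 has no settled direction.

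Of the plakins, desmoplakin, the link to keratin, lay close to 0 and periplakin was lower. DSP had 1 probe set, at 8745 and 9491, 1.09-fold higher, a log2 ratio of 0.12. PPL had 1 probe set, 203407_at, at 943 on the array labelled empty vector and 584 on that labelled RUNX2, 1.62-fold lower. Its log2 ratio of -0.69 was the lowest of the 10 genes, and 8.75% of all tested probe sets had one at least as wide. DSP and PPL differed by 0.81, 1.95 times the SD of 0.41. With 1 probe set each, neither has a second reading on these arrays. EVPL, envoplakin, the partner of PPL in the cornified envelope, read 128 and 140, and its ratio of 0.14 lay 0.83 above that of PPL.

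**Figure D3:**
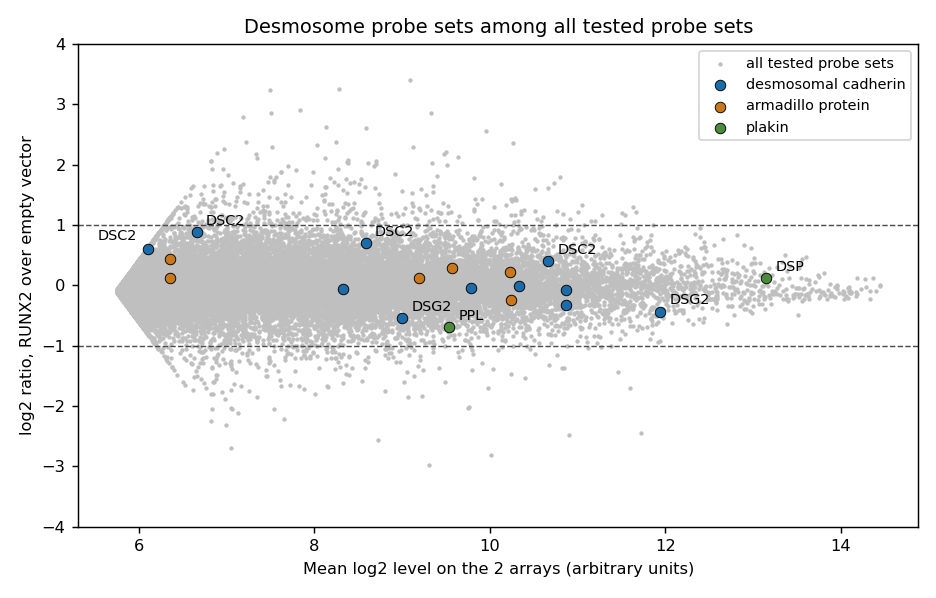
Log2 ratio against mean log2 level for all tested probe sets (grey) and the measured desmosome probe sets (coloured by protein class); dashed lines mark 2-fold. The desmosome points lie inside the grey cloud at every level, with DSC2 towards its upper side and PPL and DSG2 towards its lower side.

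Of the other desmosome genes, 7 in all (DSG1, DSG4, DSC1, PKP4, EVPL, PERP and CDSN), 3 were above the floor and by its brightest probe set none of the 3 was 1.5-fold higher or lower, with a median log2 ratio of 0.10. PERP, a membrane protein that desmosomes of stratified epithelium need, read 12040 and 12918 in its brightest probe set, with ratios of 0.10 to 0.69 over 3 probe sets, of which the highest passed 1.5-fold. PKP4, an armadillo protein related to the plakophilins, read 939 and 901. CDSN, corneodesmosin of the cornified layer, was below the floor.

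The keratins that desmosomes anchor were mostly above 0. Of 13 keratins, 9 were measured, 8 of them above 0 and 1 below. Their median log2 ratio was 0.18, beside -0.06 over all tested genes, of which 57.3% lay below 0. KRT15 (0.18), KRT8 (0.16), KRT18 (0.08) and KRT10 (0.03) were above 0 by less than the SD of 0.29 between probe sets. Of the 3 KRT10 probe sets, 1 was below 0. The ratios of KRT5, KRT14, KRT16 and KRT19 (0.33) were above that SD. The basal keratin KRT14 read 586 and 1579, a ratio of 1.43, and was the 1 keratin at least 2-fold higher (background 1.42% of genes). KRT5, its partner, read 8842 and 12580, 1.42-fold higher. KRT16, a keratin of activated epithelium, was 1.67-fold higher, at 95.4 and 159. KRT13, the keratin of mucosal layers above the basal one, read 2711 and 1643, 1.65-fold lower. The ratios of these 4 keratins were wider than the 0.12 of DSP, which links keratins to the junction. KRT14, KRT16 and KRT13 were named because they passed 1.5-fold, so their width was built in. The ratios of KRT19, KRT15 and KRT8 were also wider than that of DSP, each by less than the SD of 0.29. Those of KRT10 and KRT18 were narrower than that of DSP.

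In the adherens junction, which shares plakoglobin with the desmosome, the median over 8 measured genes was 0.03, and 0 of 8 passed 2-fold. P-cadherin, CDH3, read 4629 and 2936, 1.58-fold lower, and the nectin NECTIN4 read 258 and 172, a ratio of -0.58. E-cadherin, CDH1, had a ratio of 0.01. The catenin CTNNB1, the closest relative of JUP, had a ratio of 0.20, and a highest one of 0.64 among its 3 probe sets, beside 0.22 for JUP.

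Genes known to act on desmosomes went both ways. Of 13 measured, 8 were above 0 and 5 below, with a median log2 ratio of 0.15. PRKCA, protein kinase C alpha, which lowers the strength of desmosomal adhesion, read 1215 and 532 in its brightest probe set, 2.28-fold lower (background 1.47% of genes). Its other measured probe set had a ratio of -0.30, and their mean was -0.74, short of 2-fold. KLF5, an epithelial transcription factor, read 853 and 1443, 1.69-fold higher. GRHL1, a grainyhead factor that regulates DSG1, read 377 and 607, 1.61-fold higher, and was higher in both of its probe sets, while DSG1 stayed below the floor. The proteases ADAM10 and ADAM17, which cut DSG2 from the surface, had ratios of -0.20 and 0.29 in their brightest probe sets, and ADAM10 was above 0 in 2 of its 3 probe sets, up to 0.45. EGFR, the EGF receptor, stood above 0 by its brightest probe set, at 0.45, while 4 of its 7 measured probe sets were below 0, down to -1.71.

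The hemidesmosome and the tight junction held wider single values than the desmosome. The adherens junction did not, with its widest at -0.66 for CDH3, beside -0.69 for PPL. In the hemidesmosome, which ties keratin to the basement membrane, ITGB4 had a ratio of 1.35 in its brightest probe set, with 1 of its 4 measured probe sets below 0, at -0.11. The mean over them was 0.78, short of 2-fold. ITGA6 had a ratio of 0.95, and 1.19 as a mean over its probe sets. The median over 6 measured genes was 0.37. In the tight junction CLDN1 had a ratio of 2.63 (from 113 to 697), with a bound of at least 0.08 from its dimmer probe set. CLDN1 came to 1.35 as a mean over probe sets, 1.82 with the floor at the 75th percentile and 2.16 with an offset. CLDN4 had -0.69, and the median over 7 measured genes was -0.12. At 2-fold, 0 of 10 desmosome genes and 0 of 8 adherens junction genes were higher (background 1.42% of genes). Beside them stood 1 of 6 in the hemidesmosome and 1 of 7 in the tight junction. None of the genes in these junction lists was 2-fold lower (background 1.47%). With 1 array per group the difference between these counts was not tested.

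**Figure D4:**
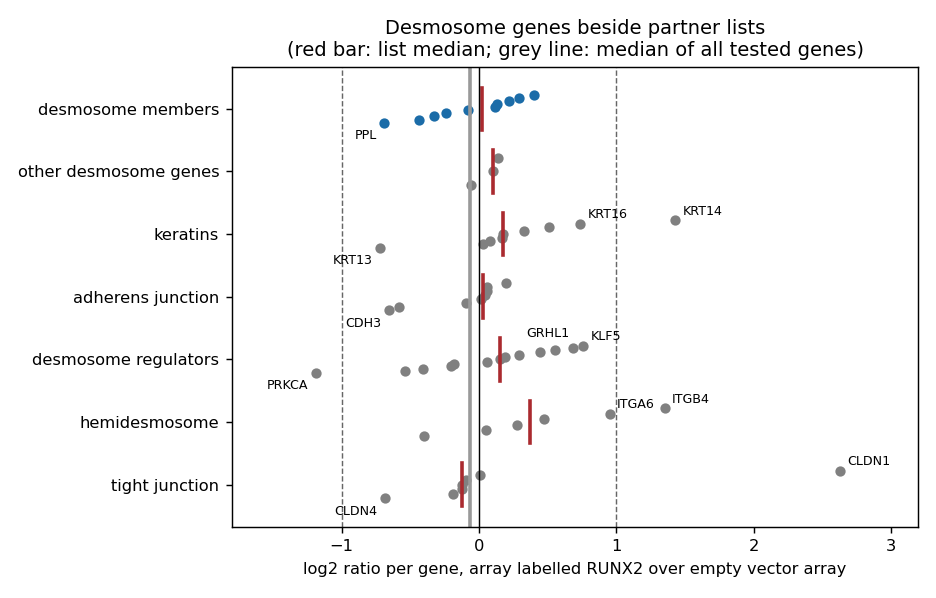
Log2 ratio per gene (points) in the desmosome and in 6 lists of related genes; red bars are list medians, the grey line is the median of all tested genes, dashed lines mark 2-fold, and genes past 1.5-fold are named. Desmosome genes span -0.69 to 0.40, and the points beyond 2-fold are KRT14, ITGB4, CLDN1 and PRKCA.

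Across 10 alternative ways of scaling, flooring and summarising, DSC2 stayed above 0 (0.39 to 0.65), as did JUP, PKP2, PKP3 and DSP, of which JUP, PKP2 and PKP3 could be read under 9. PPL stayed below 0 (-0.71 to -0.60), as did DSG2 (-0.49 to -0.34) and DSC3 (-0.33 to -0.13). PKP1 changed sign as a mean over probe sets. Some settings could not change the sign of some members. Changing or dropping the floor left DSP at 0.12 and PPL at -0.69, as did the mean over probe sets, since each has 1 bright probe set. The deposited scale and equal medians shifted every member upwards, so members above 0 could not cross it there. Equal medians took DSG3 from -0.08 to 0.01. Without probe sets ending in _x_at or _s_at, 7 members could be read, 2 above 0 and 5 below, with a median of -0.24. These 7 kept their reported ratios. The median fell because JUP, PKP2 and PKP3, all above 0, could not be read. The mean over probe sets set DSC2 past 1.5-fold, at 0.65.

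**Figure D5:**
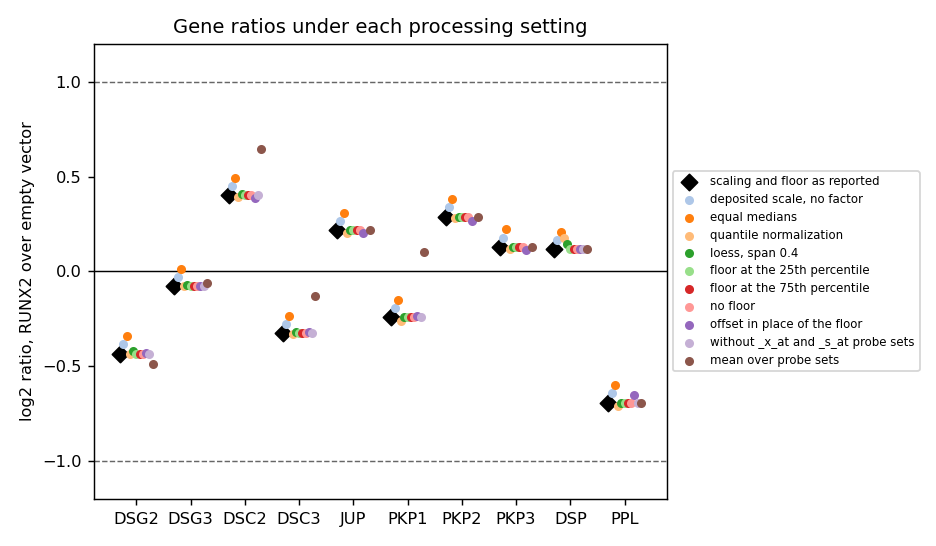
Log2 ratio of each desmosome gene (columns) under the reported processing (black diamonds) and each alternative (coloured points); dashed lines mark 2-fold. No setting carries a gene past 2-fold, and the points of PKP1 and DSG3 lie on both sides of 0.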

How the data were processed

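Expression was measured on 2 Affymetrix human arrays. The authors deposited 1 linear intensity per probe set and array, in arbitrary units, and the submitters' processing notes name MAS5 with no version or scaling target. Neither scanner files nor detection calls entered the work. From these intensities, 62 control probe sets were left out and the array labelled RUNX2 was multiplied by 0.966, which makes the 2% trimmed means equal. Values at or below an array's median (55.3 and 51.8) were raised to that floor. A probe set above the floor on at least 1 array, with 1 gene symbol, was tested. Symbols came from the platform annotation, updated by Entrez ID with RefSeq's GRCh38.p14 gene table, for 41037 of 41091 probe sets with 1 symbol; 1801 had several symbols and 11721 none. The brightest measured probe set stood for its gene.

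With 1 array per group no p-value is given; genes and probe sets were counted at 2-fold and 1.5-fold. All 10 members were named with every probe set, and of the other lists those past 1.5-fold, otherwise the widest, with further genes added for their role or their place beside a member. The members, lists and motifs were chosen with earlier results of these data known. The scripts ran in Python 3.11.15 with pandas 2.3.3 and statsmodels 0.14.6. Their scaling, floor and ratio step was tested on simulated data, with added changes wider than any desmosome ratio here. Alternatives covered scaling, floor, probe set choice and threshold.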

Additional observations from a re-analysis of the deposited data

How the results depend on the processing

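Of 236 comparisons of a count or list median with its value under an alternative, 220 stayed within 1.5 times for a count, or within the SD of 0.29 between probe sets for a median, and 16 did not. The 220 does not measure robustness, because some comparisons could not move. A count of 0 at 2-fold is also 0 at 4-fold, and each change of floor left the desmosome median at 0.02. The tolerance is wide, as the desmosome median of -0.24 given below counted as within it. At a 1.5-fold threshold, desmosome probe sets came to 3 higher and 1 lower in place of 0 and 0. The same threshold gave 1 lower adherens junction gene, 2 higher regulators, 2 higher hemidesmosome genes, 2 higher and 1 lower keratins, and 1 lower tight junction gene. At 4-fold the keratins and the hemidesmosome had 0 higher genes and the regulators 0 lower. The hemidesmosome had 2 higher genes on the deposited scale and with equal medians, where ITGA6 passed 2-fold. It had 0 without probe sets ending in _x_at or _s_at, where ITGB4 could not be read. The mean over probe sets left 0 regulators lower, as PRKCA came to -0.74. Without _x_at and _s_at probe sets the keratin median was 0.51, over fewer genes. Of the 10 desmosome genes 7 could then be read, 2 above 0 and 5 below, with a median of -0.24 in place of 0.02. No ratio of the 7 changed, and the genes lost, JUP, PKP2 and PKP3, all lay above 0. No paired analysis was possible because each group held 1 array. Intensities near the floor limit 204750_s_at and 231033_at of DSC2, 205724_at of PKP1 and 209872_s_at of PKP3.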

Other observations

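The probe set 205595_at of DSG3 was 1 of 1447 probe sets, 2.65% of those that are not controls, whose deposited values were equal on both arrays in every digit. The remaining 19 desmosome probe sets differed between the arrays. How such equal values arose was not tested.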
